A study of Mus musculus with 2 samples.

Results

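The colony-stimulating factor (CSF) receptor genes Csf1r, Csf2ra, Csf2rb, Csf2rb2 and Csf3r, with the ligand gene Csf1, were followed across cell states and libraries of mouse wound cells. These 6 genes were chosen by symbol, out of 31053 genes in the count tables, and each symbol matched 1 row. Monocytes and macrophages had been isolated on day 6 after injury from enzymatically digested skin wounds of diabetic mice and of non-diabetic mice, and single-cell 3' RNA libraries had been made from them on the 10x Chromium platform. Each group was 1 library of cells pooled from 2 mice, so differences between the groups have no replicates behind them and were not tested. The labels mention a strain for each group but name neither it nor the cause of the diabetes, and strain and diabetes cannot be told apart here.

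CSF receptors carry the signals by which myeloid cells survive, mature and are activated. CSF1R is a receptor tyrosine kinase that binds CSF1 and IL-34 and on which most monocytes and tissue macrophages depend. The GM-CSF receptor pairs a ligand-specific alpha chain, the product of Csf2ra, with the common beta chain, the product of Csf2rb, and signals through JAK2 and STAT5. Mice also carry Csf2rb2, whose product is a beta chain specific to IL-3. CSF3R, the G-CSF receptor, is best known on neutrophils and their precursors and is also found on monocytes.

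The 2 beta chain genes lie side by side on chromosome 15 and are close copies, which bears on how their reads can be told apart. On the mm10 build Csf2rb lies on the plus strand at chr15:78325752-78353847 and Csf2rb2 on the minus strand at chr15:78282507-78305721. Their longest annotated coding sequences, of 2691 and 2637 bases, were identical at 95.2% of 2631 aligned bases, with an identical run of 242 bases. Over the last 500 bases of the transcripts, where 3' reads fall, identity was 79.3%. The 120 coding bases from position 2518 are shown as the aligned coding stretch of that length without a gap nearest the 3' end. Capitals mark the 7 bases that differ, and the Csf2rb2 coding sequence ends at the last base.
Csf2rb: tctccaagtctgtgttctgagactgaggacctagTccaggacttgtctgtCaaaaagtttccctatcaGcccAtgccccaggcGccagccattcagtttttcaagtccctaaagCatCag
Csf2rb2: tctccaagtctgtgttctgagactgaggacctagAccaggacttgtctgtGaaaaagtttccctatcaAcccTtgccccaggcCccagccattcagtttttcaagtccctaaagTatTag
The values of the 2 genes are therefore uncertain to the extent that reads from identical stretches were dropped or shared, and their sum is given beside them.

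Sequencing gave 2214 barcodes with 31730014 UMIs (unique molecular identifiers, counts of distinct captured transcripts) in the diabetic library and 2026 barcodes with 17559986 UMIs in the non-diabetic library. Kept for the comparisons were barcodes that reached 500 genes with less than 10% of UMIs from mitochondrial genes, 1755 diabetic and 1123 non-diabetic cells, with medians of 16314 and 14079 UMIs per cell. Only 1 kept barcode sequence occurred in both libraries. Monocyte markers summed to 4068 CPM (UMIs scaled to the same library total) in diabetic and 5260 CPM in non-diabetic cells, and macrophage markers to 9290 and 4403 CPM, with no marker of either list at 0. Neutrophil markers summed to 4511 CPM in diabetic and 201 CPM in non-diabetic cells. Joint clustering without the CSF genes gave 15 clusters, named from markers or by a leading gene, and 10 of them took over 90% of their cells from 1 library. Only 5 clusters held at least 20 cells of each library: macrophage-like cells led by Gas6, monocyte-like cells, interferon monocyte-like cells led by Ifit3, dendritic cell-like cells and an unnamed cluster led by Lpl. These shared clusters held 30.8% of the diabetic and 53.9% of the non-diabetic cells. The 95% intervals given throughout describe counting error, of UMIs for levels and ratios and of cells for shares, and say nothing of the spread between animals.

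Over all kept cells, 2 of the 6 genes (Csf1r and Csf3r) were at least 1.5-fold higher in the diabetic library and 1 (Csf1) was as much lower. Among the 12337 genes with at least 20 UMIs, 18.7% were at least 1.5-fold higher and 12.9% as much lower. Of the 5569 genes at 20 CPM or above in either library, 9.75% were as much higher and 9.97% as much lower. Past 2-fold lay Csf3r, higher, and Csf1, lower, as did 8.56% and 6.54% of all measured genes. The median log2 ratio was 0.05 over the 6 genes and 0.12 over all measured genes. All 6 genes had at least 20 UMIs.

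Csf1r was higher in the diabetic library and was found in most cells of both. It had 15577 UMIs in diabetic cells, 512 CPM (504 to 520), against 5220 UMIs in non-diabetic cells, 338 CPM (329 to 348). A diabetic cell held a median of 8 Csf1r UMIs, with quartiles of 4 and 12 and a highest value of 47. A non-diabetic cell held a median of 4, with quartiles of 2 and 7 and a highest value of 29. In these raw counts the cells of the libraries thus overlapped widely, with the diabetic cells shifted upwards. The counts are not scaled for depth, which had medians of 16314 UMIs in diabetic and 14079 UMIs in non-diabetic cells. Csf1r was 1.51-fold higher in the diabetic library (1.47 to 1.56), a log2 ratio of 0.60 that lies just past the 1.5-fold threshold. With edgeR's TMM scaling the log2 ratio was 0.53, under that threshold. It was also under it, between 0.52 and 0.58, when the Nrg1-led, Inhba-led, Gas6-led, Lyz1-led, dendritic cell-like or Cd163-led cluster was left out. A UMI was found in 95.2% of diabetic cells and 87.3% of non-diabetic cells. After each cell was thinned to 2000 UMIs, leaving out 25 diabetic and 37 non-diabetic shallower cells, the shares were 60.3% (58.0% to 62.6%) and 46.7% (43.7% to 49.7%). Among the 20 neutrophil-like cells, a type with little Csf1r, 4 had a UMI, and 2 of those 4 held 35 and 31 of the 75 UMIs. The median depth of those cells was 5044 UMIs.

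**Figure D1:**
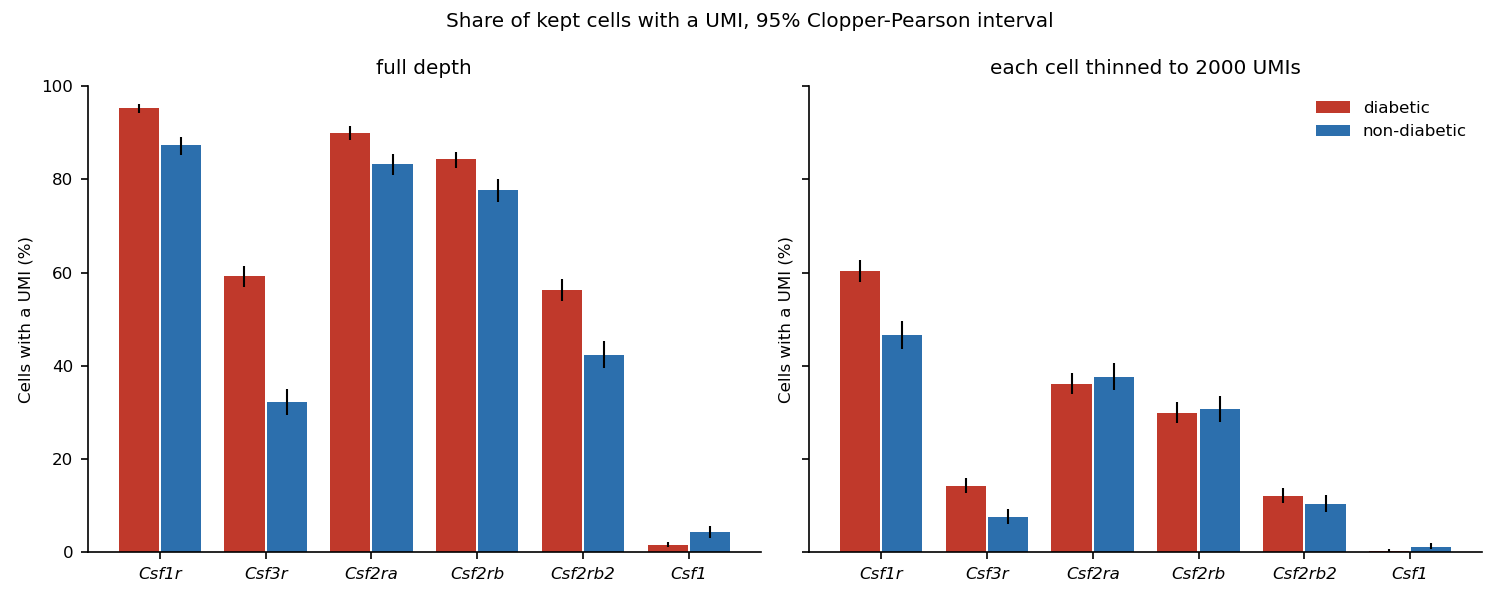
Share of kept cells with at least 1 UMI of each gene (%), in diabetic (red, left) and non-diabetic (blue, right) libraries, at full depth and after thinning each cell to 2000 UMIs, with 95% Clopper-Pearson intervals. At equal depth Csf1r was found in 60.3% against 46.7%, Csf3r in 14.2% against 7.57% and Csf2ra in 36.1% against 37.7% of cells.

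By cell state, Csf1r was highest in diabetic Gas6-led macrophage-like cells and lowest in non-diabetic dendritic cell-like cells. This was a 3.59-fold span over 19 sums of at least 20 cells of 1 library. The Gas6-led macrophage-like cells had 693 CPM in the diabetic library (669 to 718) and 529 CPM in the non-diabetic library (467 to 598). Between these levels lay 4 further diabetic states, with 632 CPM in Nrg1-led, 610 in interferon monocyte-like, 604 in Cd163-led macrophage-like and 599.6 CPM in Lyz1-led cells. A middle group followed, from 445 CPM in diabetic Ctsk-led cycling cells, 416 in diabetic Tppp3-led and 413 in non-diabetic Lpl-led cells to 409 CPM in non-diabetic interferon monocyte-like cells. Lower levels were found in diabetic Lpl-led cells (396 CPM), non-diabetic Impa2-led cells (359 CPM), diabetic Stfa3-led cells (343 CPM), monocyte-like cells (333 CPM diabetic, 332 CPM non-diabetic) non-diabetic Inhba-led cells (303 CPM) and the shallow non-diabetic Gm42418-led cells (269 CPM). Dendritic cell-like cells had 226 CPM in the diabetic library (197 to 257) and 193 CPM in the non-diabetic library (176 to 212). The order is coarse, since the intervals overlapped in 17 of the 18 pairs of neighbours. The median over the 11 diabetic sums was 445 CPM and over the 8 non-diabetic sums 345 CPM.

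**Figure D2:**
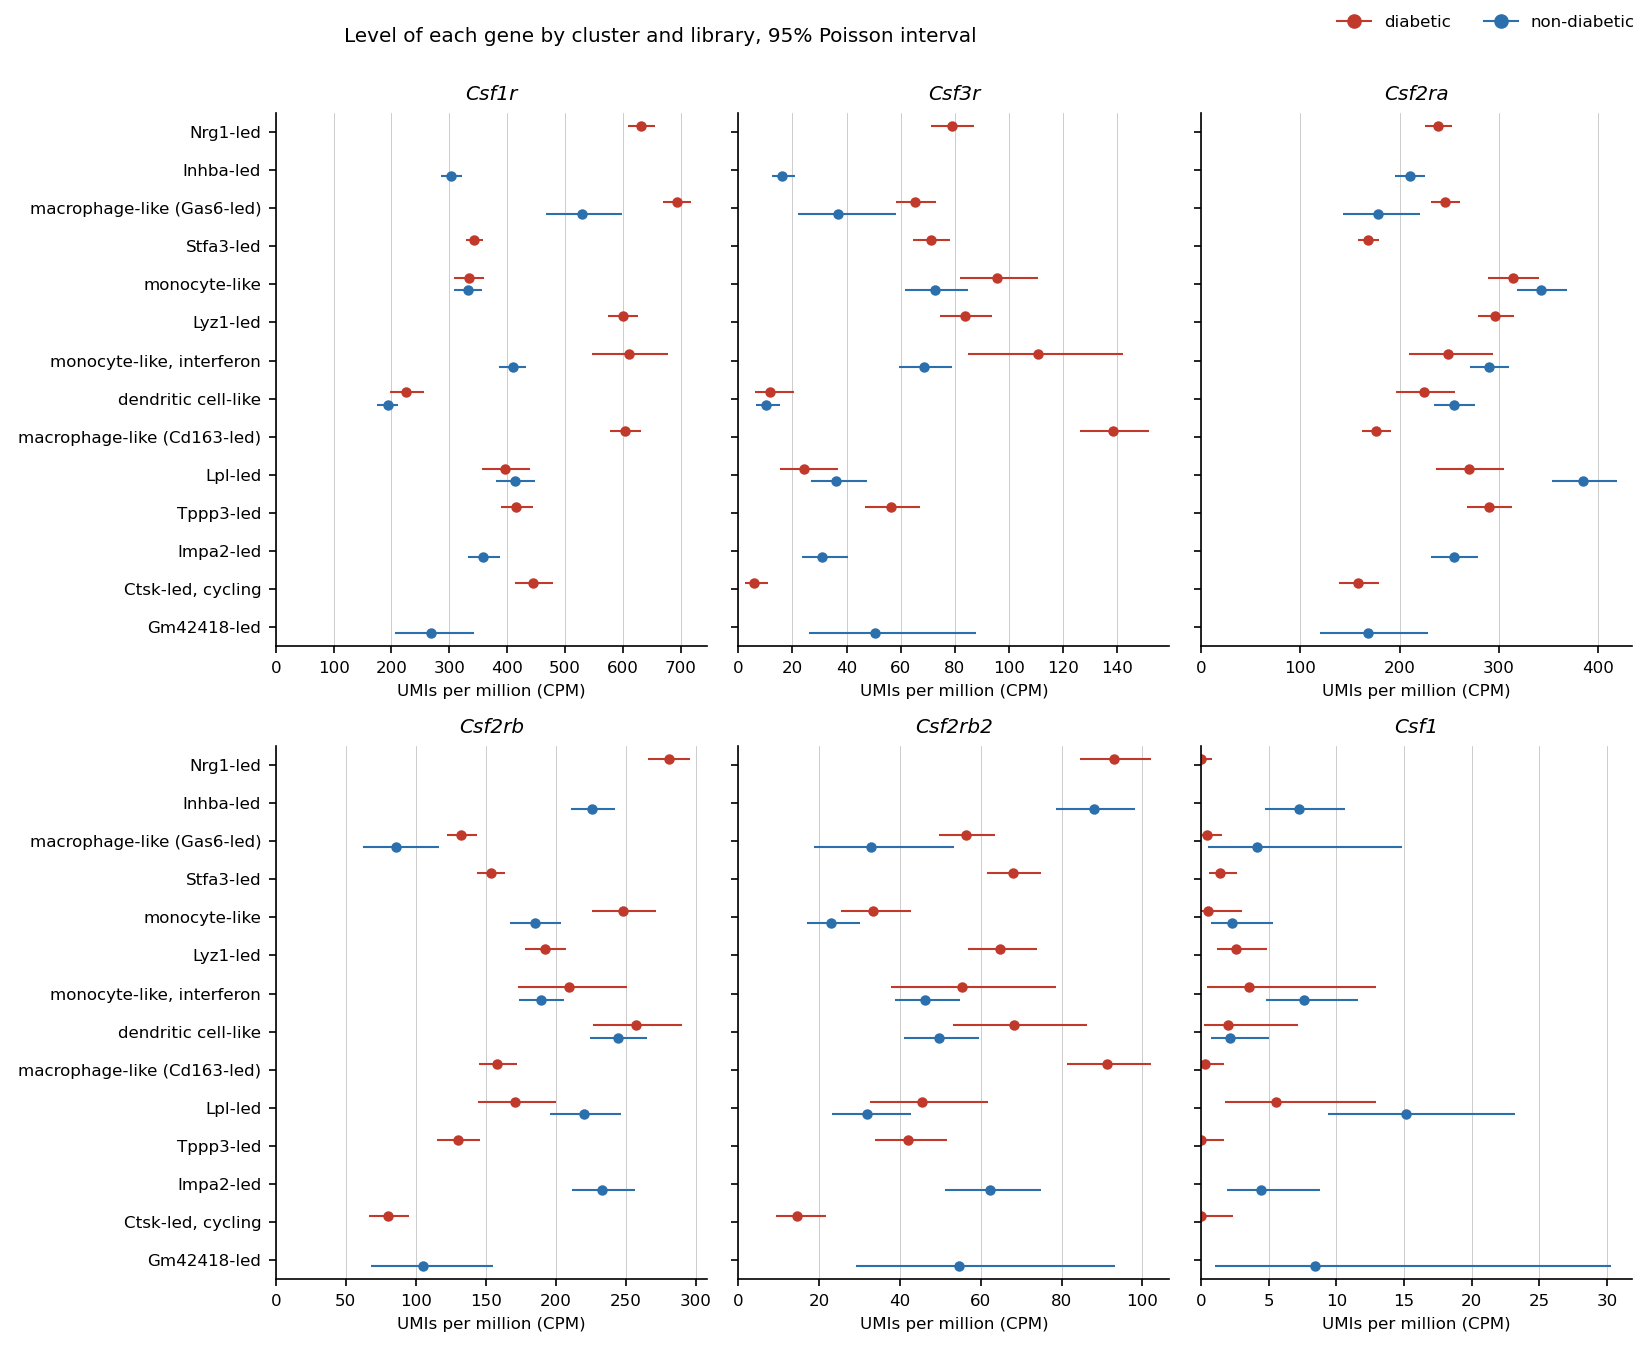
CPM of each gene (x axis) by cluster (y axis), in diabetic (red, upper) and non-diabetic (blue, lower) cells, with 95% Poisson intervals, for sums of at least 20 cells. Csf1r peaked at 693 CPM in diabetic Gas6-led macrophage-like cells and Csf3r at 139 CPM in diabetic Cd163-led macrophage-like cells, and Csf1 stayed at or below 15.2 CPM.

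Within the shared clusters each Csf1r ratio was below that of all cells, by little in one of them. The difference between these ratios was not tested. The log2 ratio was 0.58 (0.40 to 0.75) in interferon monocyte-like cells and 0.39 (0.21 to 0.58) in Gas6-led macrophage-like cells. In monocyte-like cells it was 0.00 (-0.15 to 0.16), and in Lpl-led cells -0.06 (-0.26 to 0.13). Dendritic cell-like cells lay between, at 0.22 (-0.01 to 0.46). Csf1r passed 1.5-fold in 0 of the 5 shared clusters, where 10% to 21.9% of measured genes were as much higher. The non-diabetic Gas6-led cells, 36 in number, carried fibroblast markers at 9043 CPM, against 26.0 CPM in the diabetic cells of that cluster. Only 1 of the 36 had a Csf1 UMI, and non-diabetic cells with none held fibroblast and endothelial markers at 33.9 CPM together. Most of these fibroblast UMIs were therefore in that 1 cell. The part of this RNA in the Gas6-led ratios of every gene below was not tested. Diabetic interferon monocyte-like cells held macrophage markers at 10810 CPM and monocyte markers at 5769 CPM. The non-diabetic cells of that cluster held them at 7767 and 8551 CPM. The part of this difference in the ratios of every gene in that cluster was not tested. Csf1r lies on chromosome 18 from 61100598 to 61132149, and its last 873 bases overlap Hmgxb3 on the other strand. Hmgxb3 had 9.40 CPM in diabetic and 6.81 CPM in non-diabetic cells, and whether strand was used in counting is not given in the sources used here.

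**Figure D3:**
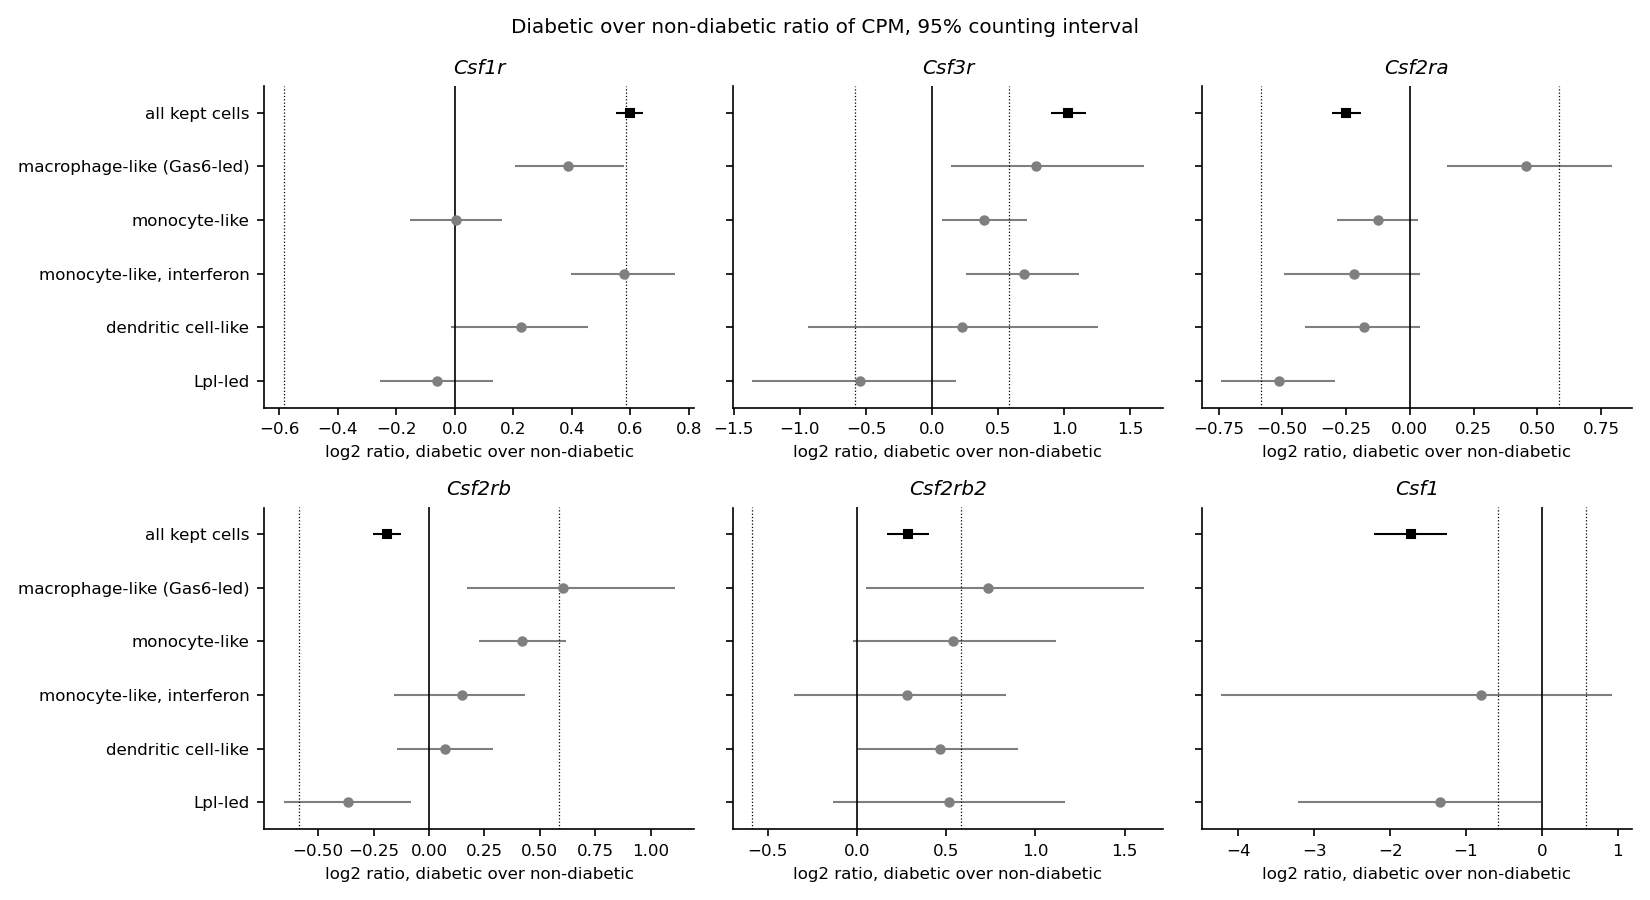
Log2 ratio of CPM, diabetic over non-diabetic (x axis), for each gene over all kept cells (black squares) and within each shared cluster (grey circles) with at least 20 UMIs, with 95% counting intervals. Dotted lines mark 1.5-fold. Csf3r was at 1.03 over all cells and between -0.55 and 0.79 within clusters, and Csf2rb2 lay above 0 in all 5.

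The ligand gene Csf1, whose product is the main growth factor for CSF1R-bearing cells and is made largely by stromal cells, was scarce. It had 59 UMIs in 28 diabetic cells (1.60%, 1.06% to 2.30%) and 99 UMIs in 48 non-diabetic cells (4.27%, 3.17% to 5.63%). Summed, Csf1 stood at 1.94 CPM (diabetic) and 6.42 CPM (non-diabetic), 3.30-fold lower, a log2 ratio of -1.72 (-2.22 to -1.25). A few cells carried much of it, with up to 14 UMIs in a diabetic and 10 in a non-diabetic cell. In the diabetic library 29 of the 59 UMIs came from neutrophil-like cells. Without the neutrophil-like cluster the log2 ratio was -2.60. Fibroblast and endothelial markers summed to 2355 CPM in diabetic cells with a Csf1 UMI and 50.9 CPM in those with none. In the non-diabetic library the values were 5908 and 33.9 CPM. These markers were concentrated in few cells, since at least 5 such UMIs were found in 3 of the 28 diabetic and 4 of the 48 non-diabetic Csf1 cells. Without all cells with that many, an alternative chosen after seeing the data, the log2 ratio was -1.50.

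Csf1 differed by state as well. The highest level was in non-diabetic Lpl-led cells, 15.2 CPM from 21 UMIs, against 5.54 CPM from 5 UMIs in the diabetic cells of that cluster. Non-diabetic interferon monocyte-like and Inhba-led cells followed at 7.64 and 7.26 CPM. No Csf1 UMI was found in the 317 diabetic Nrg1-led, 125 Tppp3-led or 45 Ctsk-led cells. For the Nrg1-led cells a floor of 3 cells allows a share of up to 0.946% of cells with a UMI. Cells with a UMI of both Csf1 and Csf1r numbered 22 of 1755 in the diabetic and 41 of 1123 in the non-diabetic library. Within shared clusters Csf1 reached 20 UMIs in 2. The log2 ratio was -1.35 (-3.22 to -0.01) in Lpl-led cells and -0.80 (-4.23 to 0.93) in interferon monocyte-like cells, the second from 2 and 22 UMIs. Diabetic Lpl-led cells held fibroblast markers at 1140 CPM and endothelial markers at 1150 CPM, against 13.7 and 41.9 CPM in non-diabetic cells of that cluster, and their part in its ratios was not tested. Il34, the gene of the other CSF1R ligand, had 0 UMIs in both libraries. Csf1 lies on chromosome 3 from 107741048 to 107760469.

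Csf3r differed most among the receptor genes, both between the libraries and between states. It had 2369 UMIs in diabetic cells, 77.8 CPM, against 589 UMIs in non-diabetic cells, 38.2 CPM. Csf3r was 2.04-fold higher in the diabetic library, a log2 ratio of 1.03 (0.90 to 1.16). A UMI was found in 59.2% of diabetic and 32.1% of non-diabetic cells, and after thinning to 2000 UMIs in 14.2% (12.6% to 16.0%) and 7.57%. Dendritic cell-like cells, taken as a background for a receptor of monocytes and neutrophils, had thinned shares of 2.30% in the diabetic and 1.84% in the non-diabetic library. Their median depths were 18930.5 and 20033 UMIs. Their neutrophil markers, at 21.8 and 3.45 CPM, were the lowest among the cluster sums of each library. This background therefore does not cover neutrophil RNA in other clusters. Csf3r lies on chromosome 4 from 126024550 to 126044440.

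The 20 neutrophil-like cells, 19 of them diabetic, had a Csf3r UMI in 14 cells and 111 Csf3r UMIs in all. Among sums of at least 20 cells of 1 library, Csf3r spanned 24.4-fold. It was highest in diabetic Cd163-led macrophage-like cells, 139 CPM (126 to 152), and next in diabetic interferon monocyte-like cells, 111 CPM (85.1 to 142). Diabetic monocyte-like cells had 95.6 CPM and non-diabetic ones 72.7 CPM. Lyz1-led (83.7 CPM), Nrg1-led (78.9 CPM), Stfa3-led (71.1 CPM) and Gas6-led (65.4 CPM) diabetic cells had close levels. Non-diabetic interferon monocyte-like cells had 68.8 CPM, diabetic Tppp3-led cells 56.3 CPM and non-diabetic Gm42418-led cells 50.4 CPM. Non-diabetic Gas6-led cells had 36.9 CPM, and Lpl-led cells 24.4 CPM (diabetic) and 36.1 CPM (non-diabetic). Non-diabetic Impa2-led cells had 31.1 CPM and Inhba-led cells 16.2 CPM. The lowest levels were 11.9 CPM in diabetic and 10.3 CPM in non-diabetic dendritic cell-like cells, and 5.68 CPM in diabetic Ctsk-led cycling cells. The intervals of all 18 pairs of neighbours in this order overlapped. Leaving the Inhba-led cluster out lowered the log2 ratio of all cells to 0.80, and leaving the interferon monocyte-like cluster out gave 1.31.

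Within shared clusters Csf3r was higher in the diabetic library in 4 of 5, with an interval above 0 in 3. The log2 ratio was 0.79 (0.14 to 1.60) in Gas6-led macrophage-like, 0.70 (0.25 to 1.11) in interferon monocyte-like and 0.39 (0.08 to 0.71) in monocyte-like cells. In interferon monocyte-like cells this was 62 UMIs in 34 diabetic cells against 198 UMIs in 208 non-diabetic cells. In dendritic cell-like cells it was 0.23 (-0.94 to 1.25), from 12 and 24 UMIs. Lpl-led cells went the other way, at -0.55 (-1.36 to 0.18), from 22 and 50 UMIs. Past 1.5-fold were 2 of the 5, the Gas6-led cluster, where 12.4% of measured genes were as much higher, and the interferon monocyte-like cluster, where 17.3% were. Neutrophil markers were higher in the diabetic cells of each shared cluster. They stood at 1058 against 292 CPM in monocyte-like, 435 against 20.9 CPM in Lpl-led and 21.8 against 3.45 CPM in dendritic cell-like cells. The part of neutrophil RNA in these Csf3r ratios was not tested.

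Csf3, which encodes the G-CSF that CSF3R binds, was also higher in the diabetic library. It had 6798 UMIs in 463 diabetic cells (26.4%) and 439 UMIs in 84 non-diabetic cells (7.48%). The level was 223 CPM in diabetic and 28.5 CPM in non-diabetic cells, 7.84-fold higher, a log2 ratio of 2.97 (2.83 to 3.12). Of the diabetic UMIs, 78.7% came from Stfa3-led cells, at 911 CPM, and of the non-diabetic UMIs 77.2% came from Inhba-led cells, at 94.7 CPM. Csf3r stood at 71.1 CPM in those diabetic Stfa3-led cells and at 16.2 CPM in those non-diabetic Inhba-led cells. Diabetic Tppp3-led and Nrg1-led cells had 176 and 153 CPM of Csf3. Diabetic monocyte-like cells, with 95.6 CPM of Csf3r, had 2.73 CPM of Csf3. Stfa3-led cells also held neutrophil markers at 18330 CPM, and the part of neutrophil RNA in their values was not tested. Csf2, the GM-CSF gene, had 45 UMIs in 13 diabetic cells and 11 UMIs in 4 non-diabetic cells, with 40 and 10 of them in the same Stfa3-led and Inhba-led clusters. The interleukin genes Il3 and Il5 had 0 UMIs in both libraries.

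**Figure D4:**
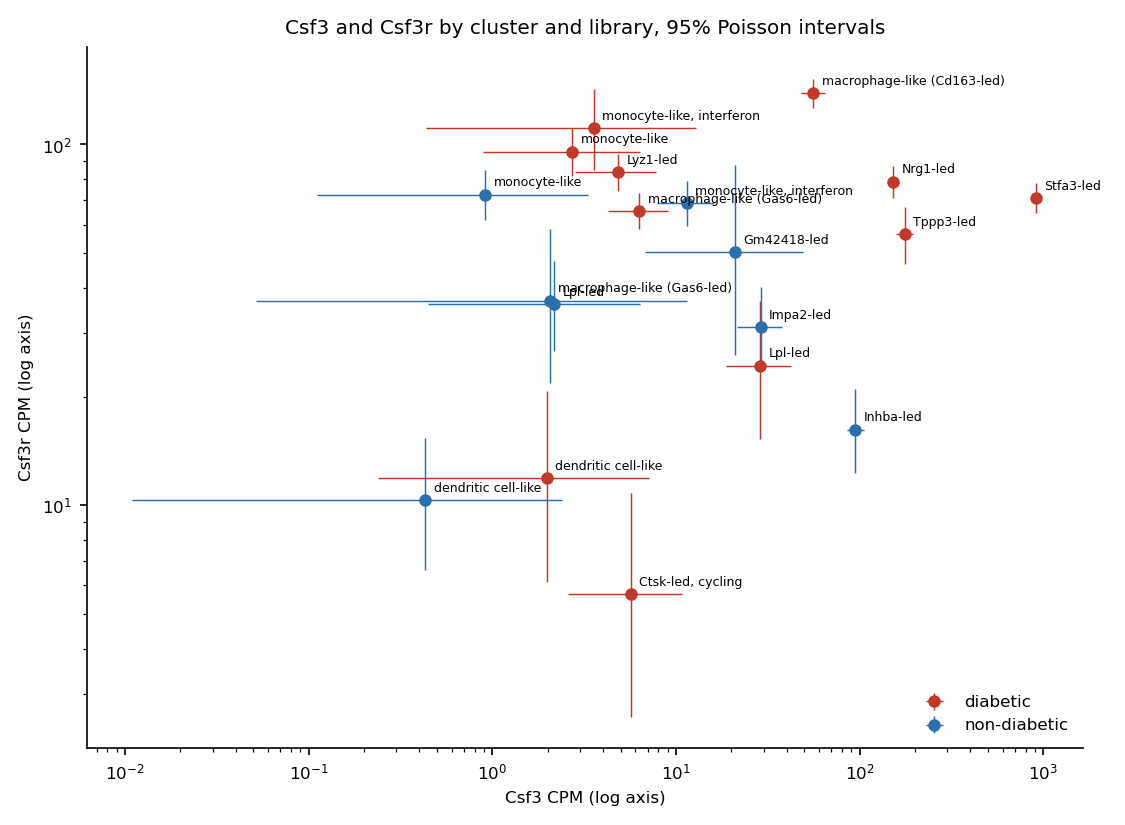
Csf3 CPM (x, log axis) against Csf3r CPM (y, log axis) in each cluster of at least 20 cells of a library, diabetic red and non-diabetic blue, with 95% Poisson intervals. The highest Csf3 level, 911 CPM in diabetic Stfa3-led cells, went with 71.1 CPM of Csf3r, and the highest Csf3r level, 139 CPM in diabetic Cd163-led cells, with 55.9 CPM of Csf3.

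The alpha and beta chain genes of the GM-CSF and IL-3 receptors differed by under 1.5-fold between the libraries over all kept cells. Csf2ra, the alpha chain gene on chromosome 19 from 61223957 to 61228429, had 6988 UMIs in diabetic cells, 230 CPM, and 4209 UMIs in non-diabetic cells, 273 CPM. Its log2 ratio was -0.25 (-0.30 to -0.19). Csf2rb had 5528 UMIs in diabetic cells, 182 CPM, and 3197 UMIs in non-diabetic cells, 207 CPM, a log2 ratio of -0.19 (-0.25 to -0.13). Csf2rb2 had 1983 UMIs in diabetic cells, 65.2 CPM, and 825 UMIs in non-diabetic cells, 53.5 CPM, a log2 ratio of 0.28 (0.17 to 0.40). Without the Inhba-led cluster the Csf2rb2 ratio was 0.59, past 1.5-fold. The 2 beta chain genes pointed in opposite directions, and summed they gave 247 CPM in diabetic and 261 CPM in non-diabetic cells, a log2 ratio of -0.08 (-0.13 to -0.02). After thinning, Csf2ra was found in 36.1% of diabetic and 37.7% of non-diabetic cells, Csf2rb in 29.9% and 30.8%, and Csf2rb2 in 12.1% and 10.4%.

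Across states the subunit genes did not share 1 order. Csf2ra was the most even, with a 2.43-fold span. It was highest in non-diabetic Lpl-led cells, 385 CPM, followed by monocyte-like cells with 314 CPM (diabetic) and 343 CPM (non-diabetic). Csf2rb spanned 3.50-fold and was highest in diabetic Nrg1-led cells, 281 CPM, followed by diabetic dendritic cell-like cells (257 CPM), diabetic monocyte-like cells (248 CPM) and non-diabetic dendritic cell-like cells (244 CPM). Csf2rb2 spanned 6.40-fold. It reached 93.0 CPM in diabetic Nrg1-led, 91.2 CPM in diabetic Cd163-led and 87.96 CPM in non-diabetic Inhba-led cells, against 33.3 CPM in diabetic and 22.8 CPM in non-diabetic monocyte-like cells. Diabetic Ctsk-led cycling cells were lowest for all 3 genes, with 158 CPM of Csf2ra, 80.1 CPM of Csf2rb and 14.5 CPM of Csf2rb2. Ctsk, Acp5 and Atp6v0d2, known from osteoclasts, led that cluster, whose Csf1r level of 445 CPM was the diabetic median.

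Within shared clusters Csf2rb2 was above 0 in 5 of 5, with log2 ratios from 0.28 to 0.74 and an interval above 0 in 2. The highest, in Gas6-led macrophage-like cells, came from 258 UMIs in diabetic and 16 UMIs in non-diabetic cells. Csf2rb gave 0.61 (0.17 to 1.11) in Gas6-led and 0.42 (0.23 to 0.62) in monocyte-like cells, and -0.37 (-0.66 to -0.08) in Lpl-led cells. Csf2ra gave 0.46 (0.15 to 0.79) in Gas6-led cells and -0.51 (-0.74 to -0.29) in Lpl-led cells. In Gas6-led cells Csf2rb, Csf2rb2 and Csf3r were past 1.5-fold higher, as were 12.4% of measured genes. The non-diabetic sums behind these 3 ratios were 42, 16 and 18 UMIs in 36 cells. In the other 4 shared clusters none of the alpha and beta chain genes passed 1.5-fold.

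At full depth most cells held UMIs of more than 1 of the receptor genes, for which no background share from cells lacking Csf2ra or Csf2rb was taken. UMIs of both Csf2ra and Csf2rb were found in 77.7% of diabetic cells (75.6% to 79.6%) and 68.6% of non-diabetic cells (65.8% to 71.3%). At 2000 UMIs per cell the shares were 10.98% and 11.7%, beside 10.8% and 11.6% as the product of the single shares. Csf1r and Csf3r were found together in 57.7% of diabetic and 31.0% of non-diabetic cells. At 2000 UMIs these shares were 8.98% and 4.15%, beside products of 8.59% and 3.53%. Csf1r and Csf2rb were found together in 81.8% of diabetic and 70.6% of non-diabetic cells, and at 2000 UMIs in 18.4% and 14.8%, beside products of 18.1% and 14.4%. Over the 19 sums, which share 2 libraries and their depths, log2(CPM + 10) correlated at r = 0.57 between Csf1r and Csf3r, 0.56 between Csf2ra and Csf2rb and -0.24 between Csf1r and Csf2rb.

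The lists of CSF pathway genes held 57 genes, Csf1 among them, and 53 were measured. At least 1.5-fold higher in the diabetic library were 3 and as much lower 10, Csf1 included, with a median log2 ratio of -0.08. Of all 12337 measured genes 18.7% were as much higher and 12.9% as much lower, and their median was 0.12. The list of genes that GM-CSF induces stood lowest, with 6 of 7 at least 1.5-fold lower, beside that 12.9% of all measured genes, and a median of -1.62. Pim1, a serine/threonine kinase gene, had 482 CPM in diabetic and 1250 CPM in non-diabetic cells, a log2 ratio of -1.38 (-1.41 to -1.34). Bhlhe40, a transcription factor gene, had 127 CPM in diabetic and 332 CPM in non-diabetic cells, a ratio of -1.39 (-1.45 to -1.33). Cish, a STAT5-induced inhibitor gene, had 4.27 CPM in diabetic and 20.2 CPM in non-diabetic cells, a ratio of -2.24. Irf4 had a ratio of -1.62, which is the list median. Of its 187 non-diabetic UMIs, 110 were in dendritic cell-like and 47 in Lpl-led cells. Of its 120 diabetic UMIs, 29 and 1 were in those clusters. In the 2 shared clusters where Irf4 was measured its ratios were -4.37 and -0.71. Pparg, at 4.83 and 6.74 CPM, had a ratio of -0.48. These genes also answer to other signals.

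The chemokine genes of that list, Ccl17 and Ccl22, came mostly from dendritic cell-like cells. Ccl17 had 17 UMIs in 2 of 56 diabetic and 298 UMIs in 11 of 117 non-diabetic dendritic cell-like cells. Ccl22 had 3 UMIs in 2 diabetic and 387 UMIs in 15 non-diabetic cells of that cluster. Over all kept cells their log2 ratios were -4.92 (-5.68 to -4.30) and -7.43 (-9.48 to -6.23). Dendritic cell-like cells made up 3.19% of diabetic and 10.4% of non-diabetic cells. Within that cluster the ratios were -2.89 (-3.73 to -2.23) and -5.59 (-8.10 to -4.26).

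Pim1 and Bhlhe40 were lower in the diabetic library in each of the 5 shared clusters, with intervals below 0. Pim1 had 796 CPM in diabetic and 1427 CPM in non-diabetic interferon monocyte-like cells, and 394 CPM in diabetic and 1226 CPM in non-diabetic Lpl-led cells. Its ratio was least far from 0 in monocyte-like cells, at -0.53 (-0.64 to -0.42). Bhlhe40 ranged from -1.57 in interferon monocyte-like to -0.41 (-0.70 to -0.12) in monocyte-like cells. Each gene passed 1.5-fold in 4 of 5, clusters in which 14.9% to 22.8% of the measured genes were as much lower. Cish was below 0 in the 4 clusters where it was measured, with an interval below 0 in Lpl-led cells alone.

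**Figure D5:**
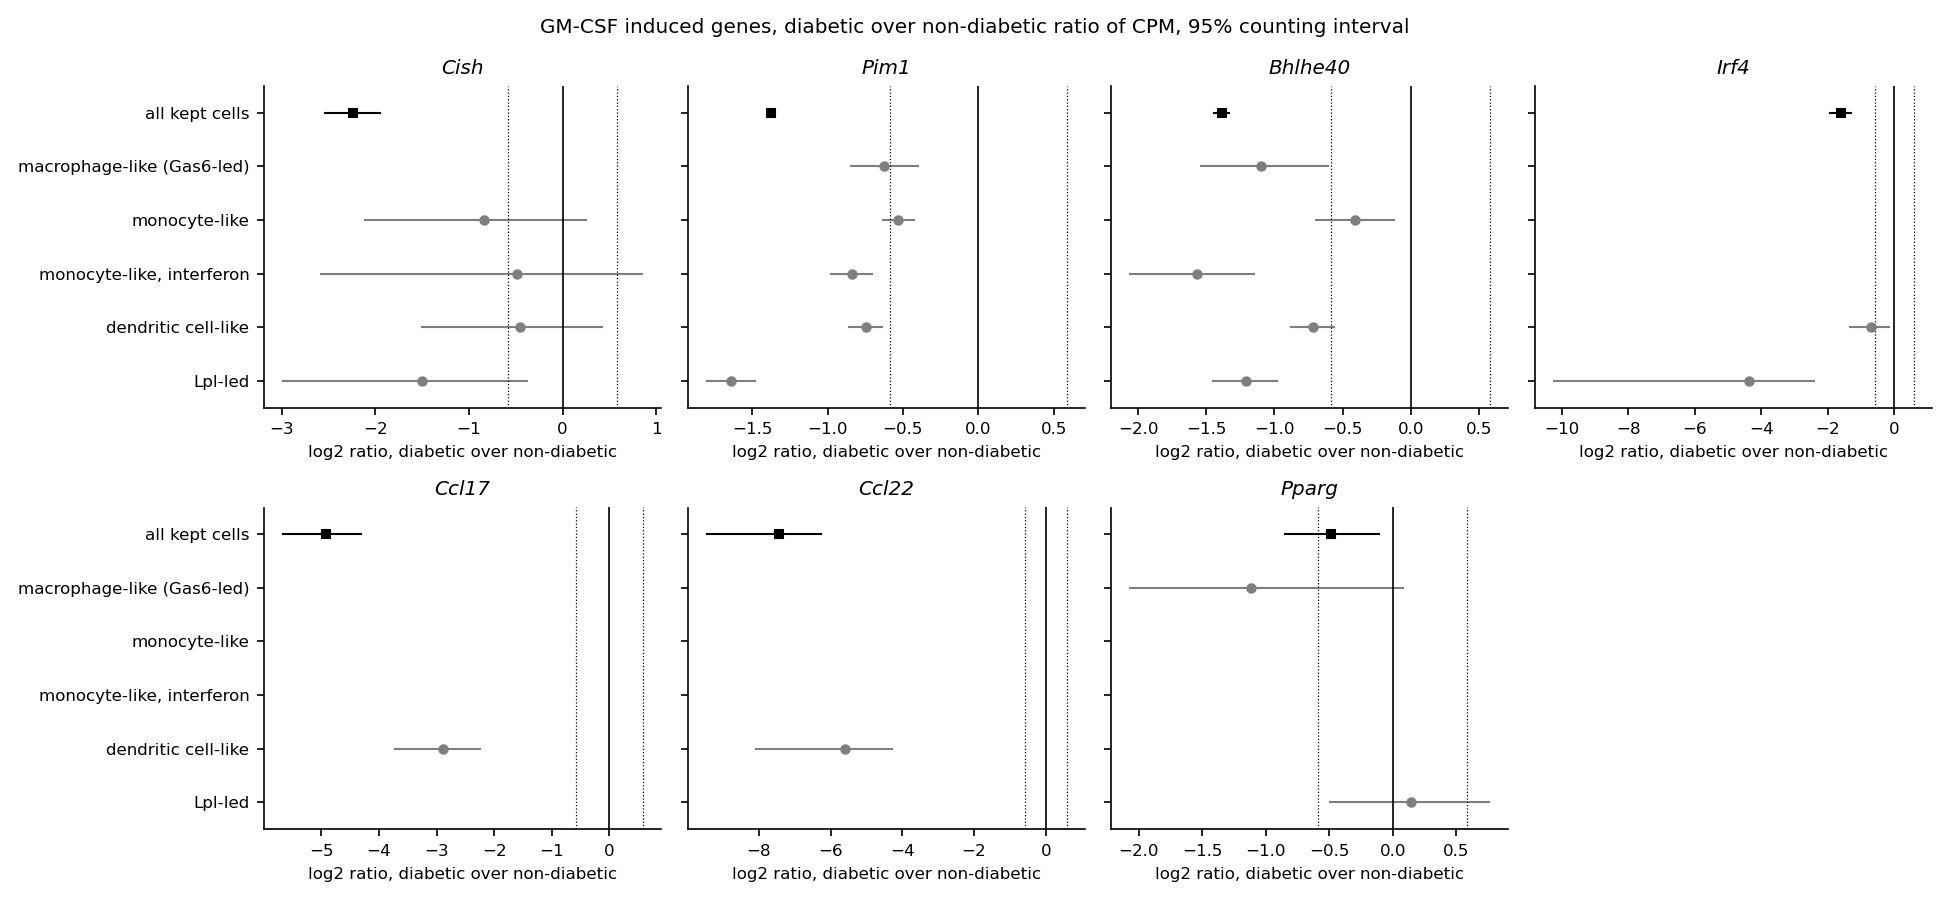
Log2 ratio of CPM, diabetic over non-diabetic (x axis), for the 7 genes of the GM-CSF induced list over all kept cells (black squares) and within shared clusters (grey circles) with at least 20 UMIs, with 95% counting intervals. Dotted lines mark 1.5-fold. Pim1 and Bhlhe40 lay below 0 in all 5 clusters.

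Genes of the signalling steps below the receptors mostly stayed within 1.5-fold. In the Csf1r proximal list 1 of 15 genes was higher and 0 lower, beside 18.7% and 12.9% of all measured genes. Among genes at 20 CPM or above in either library these shares were 9.75% and 9.97%. The higher gene was the Ras exchange factor gene Sos1, at 30.3 CPM in diabetic and 16.1 CPM in non-diabetic cells, a log2 ratio of 0.91 (0.71 to 1.12). The adaptor gene Tyrobp, which encodes DAP12, stood at 0.06, the adaptor Grb2 at -0.04, the ubiquitin ligase gene Cbl at 0.06, Shc1 at -0.08 and Gab2 at -0.23. Of the Src-family kinase genes, Lyn had a ratio of -0.31 and Fgr one of -0.09. The lipid signalling genes ranged from -0.49 for Plcg2 and -0.41 for Pik3r1, through -0.22 for Pik3cd and -0.14 for Inpp5d, to 0.27 for Pik3cg.

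Among the JAK-STAT genes, the kinase gene Tyk2 had 16.2 CPM in diabetic and 25.1 CPM in non-diabetic cells, a log2 ratio of -0.63 (-0.83 to -0.43). Jak1 (0.13), Jak2 (0.03), Stat3 (0.16), Stat5a (-0.07) and Stat5b (0.11) lay near 0. Jak2, the kinase bound to the beta chain, was past 1.5-fold higher in Gas6-led, monocyte-like and dendritic cell-like cells, 3 of 5 shared clusters. In those 3 clusters 10% to 12.4% of measured genes were as much higher. Jak2 had 352 CPM in diabetic and 145 CPM in non-diabetic dendritic cell-like cells, and 100.5 CPM in diabetic and 42.5 CPM in non-diabetic monocyte-like cells. In Gas6-led cells it had 48.0 CPM (41.9 to 54.8) in the diabetic library. The non-diabetic value there, 24.6 CPM (12.7 to 43.0), came from 12 UMIs in 36 cells. In the feedback list, genes that damp receptor signals, 2 of 7 were lower, Socs2 and Cish, the second also counted among the GM-CSF induced genes, and 0 higher, against 12.9% and 18.7% of all measured genes. Socs2 had 95 UMIs in diabetic and 168 UMIs in non-diabetic cells, a ratio of -1.80. Socs3, at 599.7 CPM in diabetic and 678 CPM in non-diabetic cells, had a ratio of -0.18, the phosphatase gene Ptpn6 one of -0.17 and Dusp6 one of 0.26.

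None of the 10 transcription factor genes listed as regulators of the receptor genes passed 1.5-fold over all cells. Among genes at 20 CPM or above in either library, 9.75% were at least 1.5-fold higher and 9.97% as much lower. Spi1, which encodes PU.1, an activator of Csf1r, had 462 CPM in diabetic and 432 CPM in non-diabetic cells, a log2 ratio of 0.10 (0.05 to 0.14). Maf (0.52), Klf4 (0.31), Irf8 (0.26) and Ets2 (0.16) were above 0, and Runx1 (-0.27), Cebpb (-0.16), Cebpa (-0.08) and Fli1 (-0.07) below. Cebpa, Cebpb and Runx1 were below 0 in all 5 shared clusters, with an interval below 0 in 3, 3 and 0 of them. Maf was below 0 in 3 of the 4 where it was measured, with 87.6 CPM in diabetic and 233 CPM in non-diabetic Lpl-led cells. Of the 4 genes for shedding of surface receptors, 0 passed 1.5-fold, beside 18.7% higher and 12.9% lower of all measured genes. The protease gene Adam17, whose product cleaves CSF1R, had 153 CPM in diabetic and 107 CPM in non-diabetic cells, a ratio of 0.52 (0.44 to 0.60). Adam10 stood at 0.01 and Rhbdf2, a regulator of ADAM17, at -0.13. The IL-3 receptor alpha gene Il3ra had 17.1 CPM in diabetic and 24.9 CPM in non-diabetic cells, a ratio of -0.55 (-0.74 to -0.35).

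Genes with the profile most like each receptor gene were ranked by Pearson correlation of log2(CPM + 10) over the 19 sums, among 4658 genes that reached 50 CPM in a sum. For Csf1r they were Serinc3 (r = 0.89), Galc, Rgl1, Lgmn and Rab11fip5 (0.86). Galc and Lgmn encode the lysosomal enzymes galactosylceramidase and legumain. For Csf3r they were Aoah (0.87), Fyb, Lrg1, Hp and Ms4a8a (0.85). Aoah encodes acyloxyacyl hydrolase, which inactivates lipopolysaccharide, and Hp encodes haptoglobin, a monocyte marker of the lists used here. For Csf2ra they were Irf5 (0.89), Slc2a6, Ppp4c, Arhgap26 and Rbbp8 (0.82). For Csf2rb they were Lrrc8c (0.86), Pvr, Gpr35, S100a11 and Cd53 (0.82). For Csf2rb2 they were Zfp36l1 (0.88), Pde3b, Picalm, Arrdc4 and Klf7 (0.74). For Csf1 they were Ccl24 (0.83), Sowahc, Cxcl10, Nktr and Trim25 (0.73), from at most 26 Csf1 UMIs in a sum. Within the 11 diabetic sums alone the Csf1 correlations were at most 0.67, and that of Trim25 was -0.10.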

How the data were processed

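Cells pooled from 2 mice per group were measured as 1 diabetic and 1 non-diabetic 10x 3' library on day 6 after injury. The files the authors deposited give unnormalized UMI counts for each gene in each barcode, made with Cell Ranger 3.0.2 on mm10, per the file headers and the submitters' processing notes, and the annotation release is not given in the sources used here. Groups came from the disease state in the labels. Of the listed genes, 71 entries share a symbol with another entry and were kept apart. The 6 genes, the pathway lists and the markers were chosen with earlier results of these data known.

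Kept cells had at least 500 genes and under 10% mitochondrial UMIs, 79.3% of the diabetic and 55.4% of the non-diabetic barcodes. The excluded barcodes differ in share between the libraries, which could shift levels. Scrublet, run per library, marked 4 and 2 cells (0.228% and 0.178%). These are low shares, the cells were kept, and doublets may remain. Clustering with scanpy 1.11.5 and leidenalg 0.10.2 used 2000 variable genes without the CSF genes, 30 principal components, 15 neighbours and resolution 1, with no batch correction. A cluster took a cell type's name where 3 or more markers, making up 50% or more of the list, were 2-fold above the other cells and detected in 10% of the cluster or more, a rule set after the data were seen. Other clusters carry a leading gene's name, and a cluster mostly of 1 library may be that library and not a cell type.

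Counts were summed per library or per cluster and library and divided by the sum of all genes to give CPM. Log2 ratios used sums with 0.5 added. Intervals are exact Poisson for CPM, Clopper-Pearson for shares and conditional exact binomial for ratios, and treat UMIs as independent. Thinned shares are hypergeometric expectations at 2000 UMIs. A gene counted as measured with 20 UMIs over the cells compared. With 1 library per group, no test was made. Named are the 6 genes, list genes that reached 20 CPM in either library, some further list genes needed to account for a count, the 5 nearest profiles per gene, without sex-linked, haemoglobin, mitochondrial and ribosomal protein genes or unnamed models, and genes that name a cluster. The interval and thinning calculations were tested on simulated data. Alternatives covered cell filters, doublets, scaling (edgeR 4.0.16, DESeq2 1.42.0, R 4.3.3), depth, cell sets, clustering and folds. Positions and coding sequences were taken from GENCODE M21, which uses that build and where all 6 genes were found by identifier, and Python 3.11.15 was used throughout. A few list genes meeting the naming rule are not reported here.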

Additional observations from a re-analysis of the deposited data

How the results depend on the processing

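No paired analysis was possible because each group has 1 library and the labels carry no replicate numbers, and for the same reason no replicate could be left out. No log2 ratio of the 6 genes changed sign under any alternative tried. TMM and DESeq2 scaling shift every log2 ratio, by -0.070 and -0.075. Csf1r then stood at 0.53 and 0.52, Csf2ra at -0.32 and -0.32, and Csf2rb at -0.26 and -0.26. In the monocyte/macrophage set Csf1r was 0.52, Csf3r 0.83 and Csf1 -2.81, and with all deposited barcodes Csf3r was 0.86. Thinned to 2000 UMIs, Csf2ra was -0.12, Csf2rb -0.059 and Csf1 -1.18. As a mean over cells Csf2ra was -0.14, Csf2rb -0.070 and Csf2rb2 0.14. Csf2rb summed with Csf2rb2 gave -0.079. Without 1 cluster at a time, Csf1r ranged from 0.52 (dendritic cell-like) to 0.71 (Stfa3-led), Csf2ra from -0.35 (Inhba-led) to -0.16 (Stfa3-led), Csf2rb2 from 0.16 (Nrg1-led) to 0.59 (Inhba-led), Csf3r from 0.80 (Inhba-led) to 1.31 (interferon monocyte-like), and Csf2rb and Csf1 reached -0.34 (Nrg1-led) and -2.60 (neutrophil-like). The count of genes at least 1.5-fold higher was 1 and not 2, without Csf1r, with all barcodes, TMM, DESeq2, the monocyte/macrophage set, thinning and the mean over cells, and was 1 at a fold of 2. It was also 1 without the Nrg1-led, Gas6-led, Lyz1-led, dendritic cell-like or Cd163-led cluster, and without the Inhba-led cluster the 2 were Csf3r and Csf2rb2. List genes higher numbered 5, against 3, with the stricter cell filter. The span of Csf2rb was 4.54 at resolution 2. With the CSF genes allowed in clustering, the spans of Csf2ra and Csf3r were 2.88 and 12.2. The causes were not tested. The other 83 comparisons of these values with an alternative moved by less than their interval, or for counts by 1.5-fold or less.

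Shares of cells with a UMI depend on depth, and Csf1, with at most 26 UMIs in a sum, gives only rough levels by state.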
